A study of Arabidopsis thaliana with 14 samples.

Results

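The comparison described here is between droughted and watered plants of the *Arabidopsis* quadruple brassinosteroid receptor mutant *bri1brl1brl3bak1* (quad) at day 6 of a drought time course. It uses 4 of the 28 channels of 14 two-colour arrays, namely the quad channel of both day 6 drought arrays and of both day 6 water arrays, paired by replicate number and dye. Quad and Col-0 wild type (WT) RNA lay on the same array in every case, with quad in Cy5 in replicate 1 and in Cy3 in replicate 2, so for quad the replicate and the dye cannot be told apart. Plants had 7 days on medium and 16 days on soil in long days, after which watering was stopped or continued, and the labels give the material as mature whole plants. The series' design gives their age as 28 days, while the study's methods give about 3 weeks, with 5 rosettes pooled in each of the 2 biological replicates. The methods' account of the arrays lists the earlier days only, and day 6 is taken from the labels, while a figure legend of the study names it too. All 4 channels carry the same mutant combination, for which the study's methods name the allele of each gene. The BRI1 allele among them is known as a weak missense allele.

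Brassinosteroids are plant steroid hormones that promote cell expansion. They bind at the cell surface to the leucine-rich repeat receptor kinase BRI1 or its close relatives BRL1 and BRL3, which act together with the co-receptor BAK1. BAK1 also serves immune receptors that sense microbes. Plants without these receptors are dwarfs that use water slowly. Drought in *Arabidopsis* is best known for raising abscisic acid (ABA) and the dehydration genes under its control, and salicylate is the hormone behind the pathogenesis-related (PR) genes of defence against biotrophic pathogens.

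The labels of the mutant were first checked on the arrays. In the 4 day 6 arrays the log2 ratio of quad over WT ran from -2.26 to -2.16 for BAK1, down to -2.06 for BRL1, which was below 0 in all 4, and from -1.55 to -0.86 for BRL3. BRI1 was not reduced in quad, with ratios between 0.04 and 0.34 in all 4 arrays. A mutant transcript can still bind a probe, and the position of the probes relative to the mutations was not examined. Drought moved none of the 4 past the limits used here in quad (BRI1 0.04 ± 0.18, BRL1 0.15 ± 0.23, BRL3 0.22 ± 0.15 and BAK1 -0.42 ± 0.13 as log2 change ± SE, n = 2 per group).

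Values are log2 normalised intensities, and a change is the mean of drought minus the mean of water with its SE from a limma single-channel fit over all 28 channels. A gene is called higher or lower when its Benjamini-Hochberg adjusted p in that fit is under 0.05 and its log2 change is over 1.5 in size, and only called genes are said below to have risen or fallen. Of 28327 loci on the array 22642 were tested. Median quad signals before normalisation were between 101 and 212 on the 4 arrays, 65.1% to 69.1% of spots were well above background and none was saturated. The drought minus water differences of replicates 1 and 2 correlated with r = 0.802 across genes, which are not independent of each other. The same correlation for WT was 0.513.

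At day 6 many more genes were called lower than higher in droughted quad, while over all genes tested 10241 had a change below 0 and 12401 above. Of 225 genes called (0.994% of those tested) 199 fell, 0.879% of all tested, and 26 rose, 0.115%, while the median change of all genes was 0.03. With the adjusted p alone the counts were 2408 lower, 10.6%, and 1686 higher, 7.45%. These shares of all genes are the baseline for the counts of list and family members in quad at day 6 given below. The 225 called genes had the same direction in both replicates, as did 74.1% of all genes tested. The median change was -1.84 among the genes that fell and 1.71 among those that rose. In 132 of the 199 genes that fell, both day 6 water channels lay above all 10 quad channels of the earlier days, against 8.24% of all genes. In 79 both drought channels lay below all 10, against 7.9% of all genes. Of the 26 genes that rose, 20 had both drought channels above these 10, against 8.23% of all genes. In 7 both water channels lay below them, against 5.66%. Called genes were picked by these same day 6 channels, which by itself raises such counts above the shares of all genes.

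**Figure D1:**
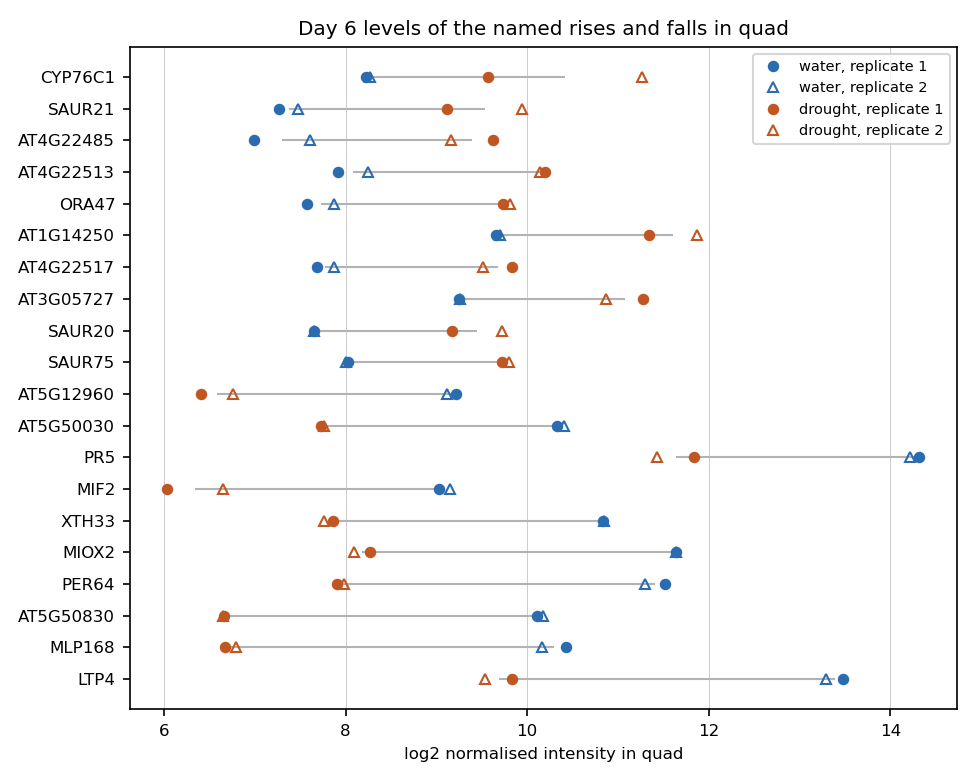
Log2 normalised intensity in quad at day 6 (x axis) of the 10 genes with the largest rises and the 10 with the largest falls that were well above background in all 4 channels (y axis). Circles are replicate 1, triangles replicate 2, and the grey line joins the 2 group means; drought and water do not overlap in any of the 20 genes, and the drought replicates of CYP76C1 lie furthest apart, at 9.57 and 11.27.

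The largest fall was that of SAG12, a cysteine protease of senescing leaves. Its log2 intensity was 11.70 and 11.72 in the watered quad replicates and 5.97 and 6.54 in the droughted ones, where only 1 of the 2 channels was well above background. The change was -5.46 ± 0.21 (adjusted p = 6.0e-13). The droughted values were also lower than at day 0, when both replicates stood at 7.75 and 7.72. In WT the gene stood at 9.48 and 10.44 in drought and at 9.94 and 9.88 in water, so the WT groups overlapped, and the change differed between the genotypes by -5.50 ± 0.25 (adjusted p = 5.3e-11). Of 15 senescence and chlorophyll breakdown genes tested SAG12 was the only one called, and the median of the list, SAG12 included, was -0.21.

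The lipid transfer proteins LTP4 and LTP3, small secreted proteins that bind lipids, fell together. LTP4 was at 13.48 and 13.29 in water and at 9.83 and 9.54 in drought, a change of -3.70 ± 0.16 (adjusted p = 3.1e-12) or 13.0-fold. In WT all 4 LTP4 values lay between 13.13 and 13.72, and the genotypes differed by -3.38 ± 0.19 (adjusted p = 1.1e-09). LTP3 fell by 2.07 ± 0.29 in quad, and in WT it stood at 8.24 and 9.12 in drought and at 8.64 and 8.47 in water. These are neighbouring, closely similar genes, and signal from one may be read by the probe of the other. No further gene among the 21 tested of the lipid transfer and cuticular wax list was called, and its median was -0.02.

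PER64, a class III peroxidase known for lignin formation in the Casparian strip of the root, was at 11.51 and 11.30 in watered quad and at 7.91 and 7.99 in drought, a change of -3.46 ± 0.41 (adjusted p = 3.0e-06). It did not exceed 8.66 in any of the 10 other quad channels. In WT the 2 drought replicates differed widely, at 10.71 and 12.93, around the watered values of 11.42 and 11.40. The difference between the genotypes was -3.87 ± 0.50 (adjusted p = 4.8e-05), and -2.80 without the second day 6 drought array. Of 31 class III peroxidases drawn up as a list, only 10 carried their name in the reference table and were kept, so they do not stand for the family. Among these 10, all tested, PER64 was the 1 called, 6 were lower by the adjusted p alone and the median was -0.61.

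MIOX2 and XTH33 fell in both genotypes. MIOX2, a myo-inositol oxygenase that supplies precursors of cell wall sugars, went from 11.63 and 11.64 in water to 8.27 and 8.09 in drought (-3.46 ± 0.15, adjusted p = 3.6e-12) and changed by -3.42 in WT, a difference of -0.04 ± 0.19 (adjusted p = 0.96). XTH33, of the enzymes that cut and rejoin wall xyloglucan, went from 10.83 and 10.85 to 7.87 and 7.76 (-3.02 ± 0.10, adjusted p = 1.8e-13) and changed by -2.73 in WT. The remaining large falls were those of MLP168 (-3.56 ± 0.21), a protein of the major latex protein family, MIF2 (-2.74 ± 0.27), a mini zinc finger protein, and the loci AT5G50830 (-3.49 ± 0.18), AT5G50030 (-2.62 ± 0.13) and AT5G12960 (-2.59 ± 0.17). MLP168 was at 10.43 and 10.16 in watered quad and between 6.15 and 7.10 in the 12 other quad channels.

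**Figure D2:**
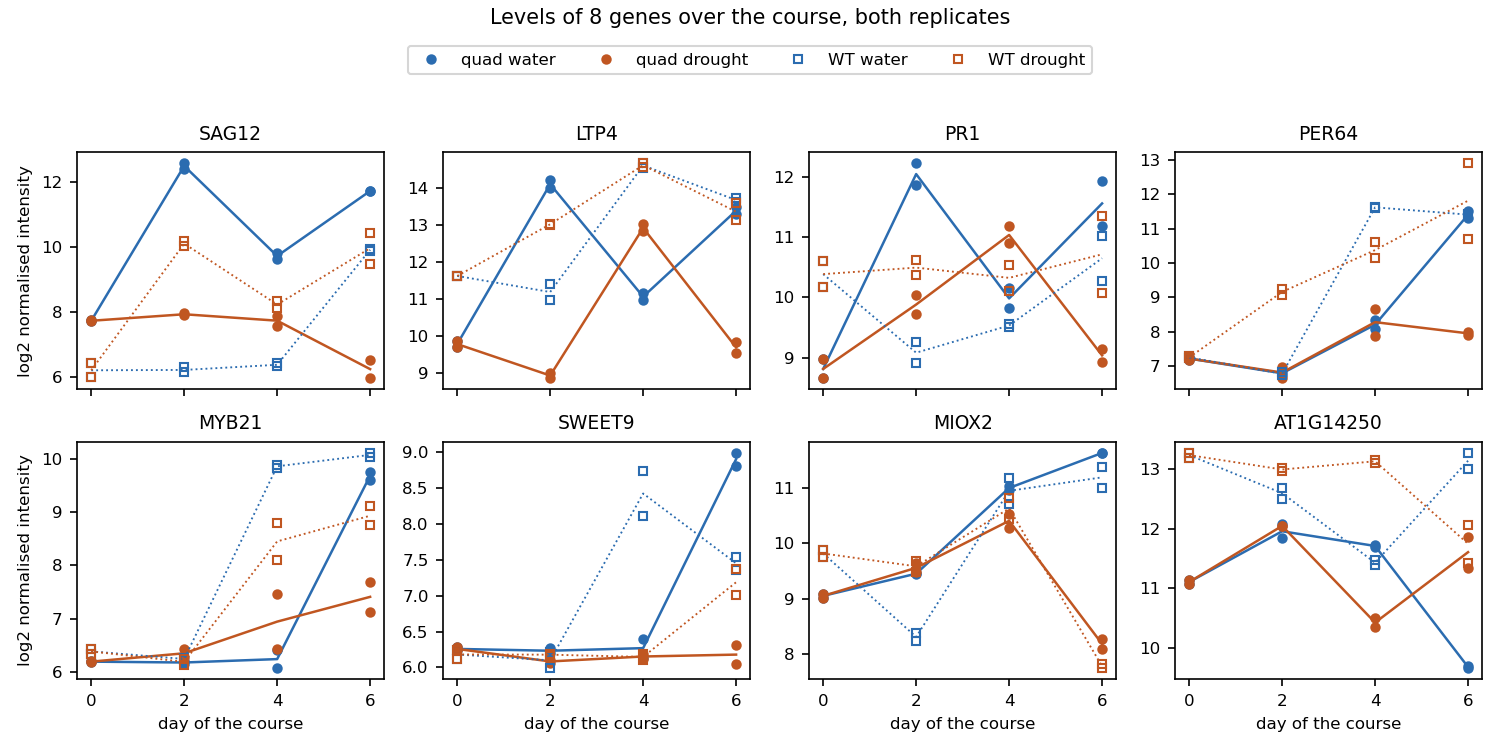
Log2 normalised intensity (y axis) against day of the course (x axis) for 8 genes, with filled circles for quad, open squares for WT, blue for water and orange for drought. Points are replicates and lines join group means, with day 0 shared by both courses; in quad PER64, MYB21 and SWEET9 are high only in the day 6 water channels, while SAG12, LTP4 and PR1 are also high in water at day 2.

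Salicylate and defence genes were lower in droughted than in watered quad as a group. Of 25 tested, 7 fell, against 0.879% of all genes, and none rose. By the adjusted p alone 22 were lower, against 10.6% of all genes. All 25 were lower in both replicates, as were 7562 of all 22642 genes tested, and the list median was -0.99. PR1, the usual marker of salicylate signalling, was at 11.95 and 11.18 in water and at 9.14 and 8.93 in drought (-2.53 ± 0.33, adjusted p = 1.2e-05). PR5, a thaumatin-like protein, went from 14.32 and 14.22 to 11.84 and 11.43 (-2.63 ± 0.36, adjusted p = 2.0e-05), and BGL2, the glucanase PR2, from 12.69 and 12.50 to 10.30 and 10.01 (-2.44 ± 0.34, adjusted p = 2.3e-05). The droughted replicates of PR5 and BGL2 were the lowest of all 14 quad channels, whereas those of PR1 lay near its day 0 values of 8.97 and 8.65.

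The other 4 members that fell have different roles. PAD3 makes the phytoalexin camalexin (-2.10 ± 0.14), DMR6 (-1.71 ± 0.14) and DLO1 (-1.91 ± 0.27) hydroxylate salicylate and so lower it, and SAG13 (-2.09 ± 0.38) is a short-chain dehydrogenase induced in senescence and infection. The call of SAG13 rests on 1 of its 2 measured probes, as the other gave -0.13. Genes upstream in the pathway changed less and were past the adjusted p alone: the regulators PAD4 (-1.21 ± 0.16) and EDS1 (-0.83 ± 0.11), PBS3, which acts after isochorismate in salicylate synthesis (-1.06 ± 0.17), and ICS1, the isochorismate synthase itself (-0.61 ± 0.14). The 3 members that missed the adjusted p were EDS5 (-0.14), WRKY54 (-0.11) and WRKY70 (-0.09). The drought and water channels did not overlap in 24 of the 25, WRKY54 being the exception, against 59.2% of all genes tested. In 14 of the 25 both drought channels were below all quad channels of the earlier days, against 7.9% of all genes.

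**Figure D3:**
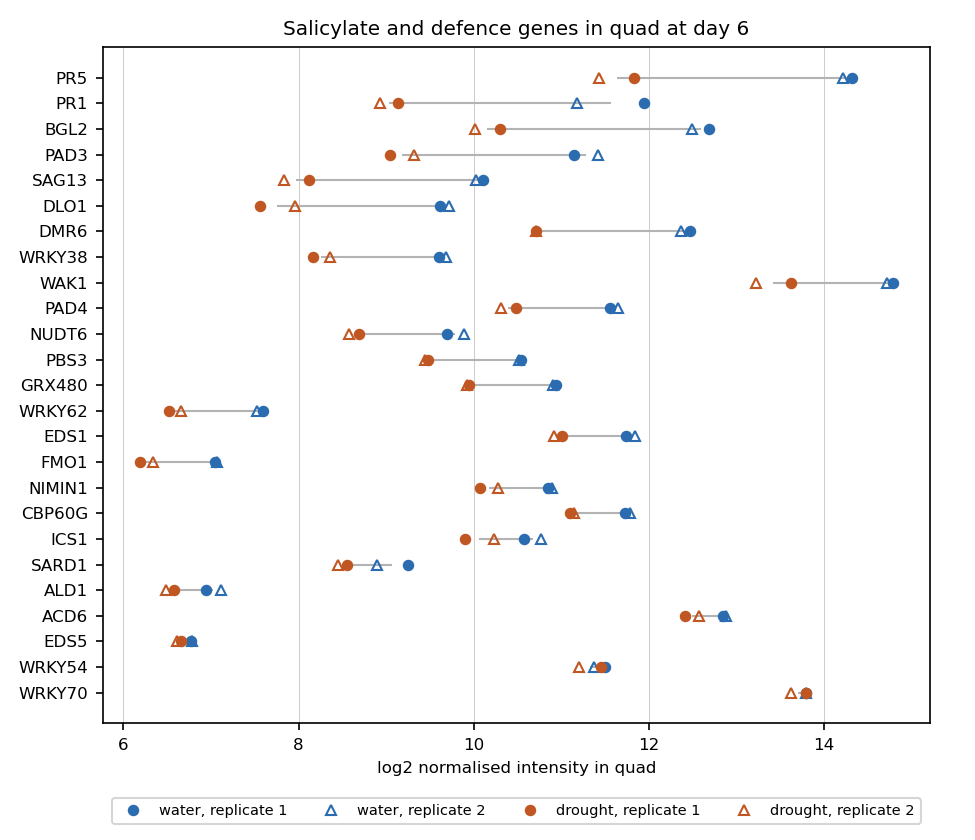
Log2 normalised intensity in quad at day 6 (x axis) of the 25 salicylate and defence genes tested (y axis), ordered by their change. Circles are replicate 1 and triangles replicate 2; drought is to the left of water in every gene but WRKY54, where the 2 groups overlap, and in WRKY70 the groups all but meet.

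In WT 12 of the same 25 genes were above 0 and 13 below, with 1 called lower, SAG13 at -2.28, where 0.256% of all genes were called lower and 0.168% higher. The WT replicates lay on either side of 0, with a median difference of -0.23 in replicate 1 and of 0.18 in replicate 2. In the second WT drought channel PR5 stood at 13.52 against 11.63 in the first, and PR1 at 11.36 against 10.08. The change was lower in quad than in WT by the adjusted p alone in 20 of the 25, against 4.18% of all genes, and 6 differences were called, against 0.336%. These 6 were PR1, PR5, BGL2, DMR6, DLO1 and WRKY38. For PR1 the difference was -2.59 ± 0.41 (adjusted p = 3.4e-04) and it was -1.85 without the second day 6 drought array.

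Both treatments moved through the course. The summed level of the 25 genes in watered quad, on a log2 scale, was 17.25 and 17.13 at day 2, 15.75 and 15.62 at day 4 and 16.79 and 16.73 at day 6. In droughted quad it was 16.51 and 16.41, then 16.34 and 16.24, and then 15.72 and 15.57. The drought change of the list in quad thus had a median of -0.81 at day 2, 0.26 at day 4 and -0.99 at day 6. Between day 4 and day 6 the change differed in 9 of the 25 by the full limits, all toward lower, with 1.75% of all genes called lower in that test.

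Members of 2 receptor families fell as well. Of 42 cysteine-rich receptor-like kinases (CRKs) tested 8 fell, against 0.879% of all genes, and none rose. By the adjusted p alone 25 were lower, against 10.6% of all genes, and the family median was -0.55 against -0.08 in WT. CRK6 went from 11.94 and 11.82 in water to 9.58 and 9.81 in drought (-2.18 ± 0.24, adjusted p = 1.3e-06), and CRK8 from 10.02 and 9.99 to 7.90 and 7.85 (-2.13 ± 0.22, adjusted p = 6.2e-07). The 3 measured probes of CRK6 ran from -2.18 to -1.34, and the 3 of CRK8 from -2.13 to -0.25. Neighbouring CRKs are similar in sequence, so their probes may not be separate measurements. Of 51 receptor-like proteins (RLPs) 4 fell, against 0.879% of all genes, and the family median was -0.26. The 4 were RLP40 (-1.91), RLP34 (-1.72), RLP23 (-1.71), which recognises a microbial peptide, and RLP38 (-1.60). Both families were picked out after their values had been seen, as were 2 further single genes, PNP-A (-2.46 ± 0.25), a secreted peptide induced with the PR genes, and NAC090 (-2.46 ± 0.24), a NAC transcription factor.

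Of 33 jasmonate genes 8 were lower and 2 higher by the adjusted p alone, and 1 fell, the tyrosine aminotransferase TAT3, from 10.38 and 10.42 in water to 7.97 and 7.84 in drought (-2.50 ± 0.17, adjusted p = 3.0e-09). It was at 9.44 and 9.73 in watered WT and at 8.73 and 9.53 in droughted WT. The list median was -0.15. Of 9 defensins and ethylene-branch genes none was called and 2 were lower by the adjusted p alone, and the regulator ORA59 was at -0.48 ± 0.27 and the defensin PDF1.2b at 0.44 ± 0.15, both short of the adjusted p. ORA47, an AP2/ERF factor that activates jasmonate synthesis and lay on none of the lists, rose from 7.58 and 7.87 to 9.74 and 9.81 (2.05 ± 0.21, adjusted p = 3.3e-07), and by 1.38 in WT.

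Of 23 flower and pollen genes tested 1 fell, 10 were lower and none higher by the adjusted p alone, and the median was -0.42 against -0.54 in WT. The 1 that fell, MYB21, a regulator of stamen and petal maturation, was at 9.75 and 9.61 in watered quad and at 7.13 and 7.69 in drought (-2.27 ± 0.27, adjusted p = 2.9e-06), and no quad channel of the earlier days exceeded 7.47. In WT the fitted change was -1.14, and WT had reached 9.88 and 9.83 in water at day 4 already. Genes of floral organ and meristem identity were closer to 0: PISTILLATA (PI) stood at -0.50 ± 0.15 (adjusted p = 0.023), AP3 at -0.41, AP1 at -0.22, AG at -0.10 and LFY at -0.04, the last 4 short of the adjusted p. The pollen coat proteins GRP14, GRP16, GRP17 and GRP19 had values between 0.25 and 0.58, also short of it. Both day 6 water channels were above all quad channels of the earlier days in 15 of the 23, against 8.24% of all genes. Both day 6 drought channels were above those same channels in 7 of the 23, against 8.23% of all genes.

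The summed level of the 23 flower and pollen genes in quad was between 12.72 and 12.99 at day 0 and rose through the course in both treatments, to 15.13 and 15.06 in water and 14.87 and 14.85 in drought at day 6. At day 4 it had been higher in droughted quad, at 14.71 and 14.66, than in watered quad, at 13.39 and 13.24. The change at day 6 was lower than at day 4 in all 23, as it was in 10606 of all 22642 genes. Of the 23, 10 were called lower in that test, against 1.75% of all genes. In WT the day 6 sums were 15.13 and 14.82 in water and 14.38 and 14.30 in drought. A lower level in such samples may reflect fewer cells of a type or less RNA per cell, and these arrays cannot tell these apart. How far flower content moved with the other gene groups was not tested.

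Among the genes that fell, 24 were not well above background in any quad channel apart from the day 6 water ones. They were picked by this pattern after the values had been seen, so their folds in quad are given as lower bounds, set against the weakest signals well above background, and support nothing further. The bounds ran from at least 2.88-fold to at least 15.2-fold higher in water, the last for AT5G39880 at a mean of 10.13 in water. SWEET9, the sugar exporter needed for nectar secretion, was at 8.99 and 8.81 in watered quad, at least 6.58-fold above drought. Several others are known from pollen: CHX23 (at least 4.79-fold), a cation exchanger, FLA3 (at least 4.55-fold), an arabinogalactan protein, and CPK24 (at least 4.31-fold), a calcium-dependent kinase. TPS14 (at least 4.79-fold) is a terpene synthase active in flowers.

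The same 24 genes were measurable in WT, where all were well above background in both channels of day 6 water, of day 6 drought and of day 4 water, and 16 of them in both channels of day 4 drought. Their WT changes at day 6 were all below 0, 22 by the adjusted p (7.75% of all genes were lower by it in WT), with a median of -0.90 and none called. SWEET9 in WT was highest at day 4 in water, at 8.73 and 8.11, and at day 6 its WT values were 7.00 and 7.37 in drought and 7.36 and 7.54 in water. Other pollen genes that fell were measurable in both quad groups, among them the arabinogalactan proteins AGP11 (-2.04 ± 0.17) and AGP6 (-1.54 ± 0.17), which changed by -1.01 and -1.18 in WT.

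SAUR genes made up 10 of the 26 that rose. Of the 70 tested of this family, picked out after its values had been seen, 1 fell (AT3G20220, -1.80), 25 were higher and 9 lower by the adjusted p alone, and the median was 0.20. Of 29 early auxin response genes tested 8 rose and none fell, 18 were higher and 3 lower by the adjusted p alone, and the median was 0.85. All 8 encode SAUR proteins, short-lived products of early auxin response genes of which several promote cell expansion. SAUR21 (AT5G18030) went from 7.27 and 7.48 in water to 9.12 and 9.94 in drought (2.16 ± 0.20, adjusted p = 1.4e-07). SAUR20 went from 7.66 and 7.65 to 9.17 and 9.72 (1.80 ± 0.13), SAUR24 from 10.89 and 10.74 to 12.30 and 12.79 (1.73 ± 0.19), and SAUR19 from 7.96 and 8.30 to 9.65 and 10.05 (1.72 ± 0.14). SAUR24 came to 1.49 without the second drought array, short of the limit of 1.5.

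The 8 genes come from 2 clusters of neighbours, SAUR19 to SAUR24 on chromosome 5 and SAUR62 to SAUR64 on chromosome 1, whose members are nearly identical in sequence, so they are not 8 separate measurements. SAUR75, on another chromosome 5 locus, rose as well (8.03 and 8.00 to 9.73 and 9.80, 1.75 ± 0.16, adjusted p = 1.0e-07). Among members of other families IAA1, an auxin-induced repressor, was at 1.15 ± 0.14 and IAA29 at 0.91 ± 0.12, past the adjusted p alone, and IAA7 (-0.72 ± 0.21) and IAA19 (-0.46 ± 0.14) were lower by it. WT had a median of 0.80 in this list, and no difference between the genotypes was called in it.

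Of 20 cell wall loosening genes tested, the expansin EXPA8, of the proteins that loosen the wall, rose (9.70 and 9.69 to 11.40 and 11.37, 1.70 ± 0.14, adjusted p = 2.1e-08), and 3 xyloglucan endotransglucosylase/hydrolases fell, XTR6 (-2.13 ± 0.16), XTH24 (-1.94 ± 0.13) and XTH18 (-1.69 ± 0.14). By the adjusted p alone the 6 higher members were all expansins and the 8 lower ones were all of the XTH family. The difference from WT was -0.51 ± 0.17 for EXPA8, -0.06 ± 0.19 for XTR6 and -0.36 ± 0.17 for XTH18, all short of the adjusted p. For XTH24 it was -1.04 ± 0.16, past the adjusted p alone. Over the whole XTH family, picked out after its values had been seen, 30 genes were tested, of which 5 fell and 1 rose, with 13 lower and 3 higher by the adjusted p alone and a median of -0.30. The 1 that rose was XTH3 (1.54 ± 0.20), where the WT change was -0.87.

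**Figure D4:**
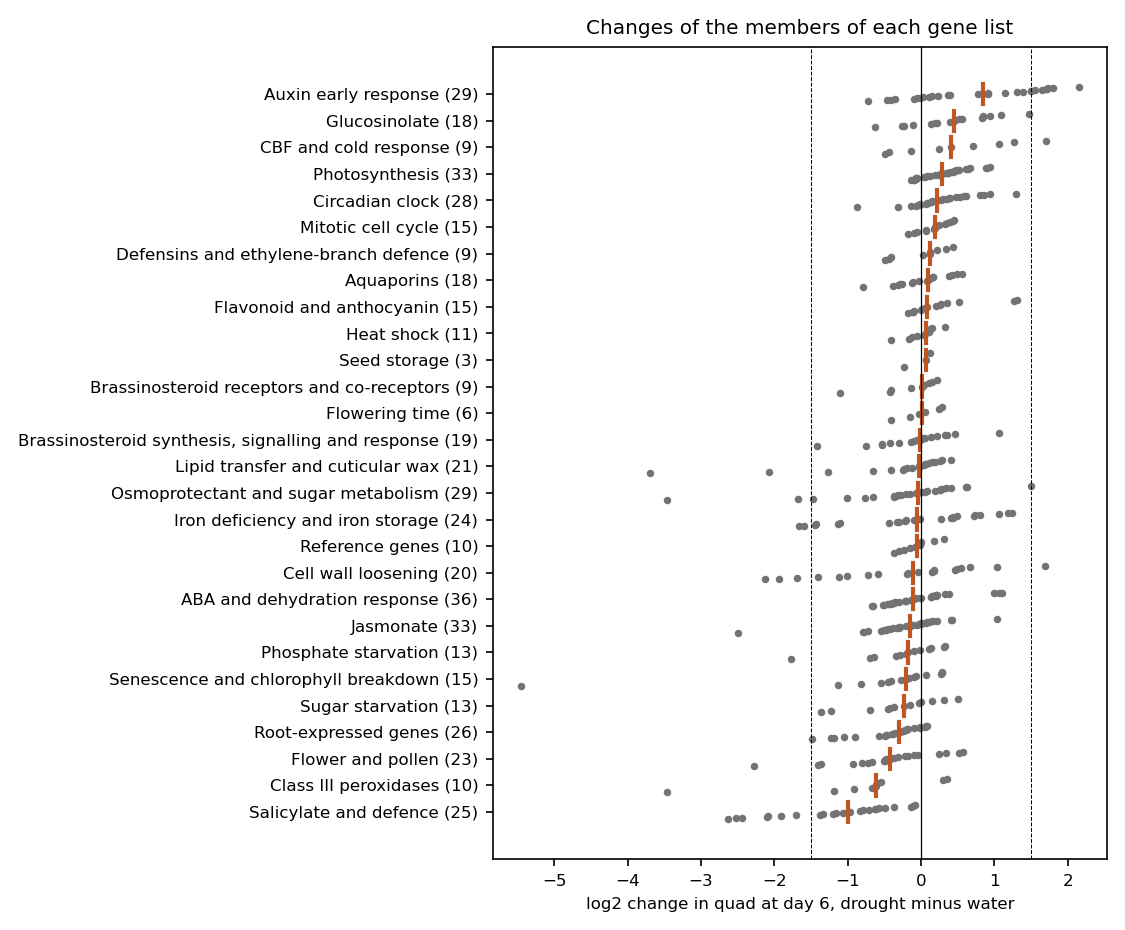
Log2 change in quad at day 6, drought minus water (x axis), of every tested member (grey points) of 28 gene lists (y axis, members in brackets), ordered by the list median (orange bar). Dashed lines mark changes of 1.5 in size; the salicylate list lies lowest, with a median of -0.99, and the early auxin list highest, at 0.85.

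None of 36 ABA and dehydration genes tested was called, 3 were higher and 5 lower by the adjusted p alone, and the median was -0.11. The 3 higher ones were HAI2, a phosphatase that ABA induces (8.55 and 8.54 in water, 9.29 and 10.01 in drought, 1.11 ± 0.17), NCED3, the enzyme of the committed step of ABA synthesis (9.52 and 9.66 in water, 10.64 and 10.66 in drought, 1.06 ± 0.10), and the NAC factor RD26 (12.85 and 12.50 in drought, 11.65 and 11.70 in water). At day 4 the same list had 4 members called higher in droughted quad, against 0.287% of all genes, and a median of 0.30. At day 2 it had 8 called lower, against 0.473% of all genes, and a median of -0.60. LEA7, a protective protein of drying cells, changed by -3.28 at day 2, by 4.38 at day 4 and by -0.37 ± 0.12 at day 6, a difference of -4.75. The first day 4 drought array stood apart from the other arrays when set against the deposited ratios, and the count of day 6 minus day 4 calls was 451 (1.99%) with it and 461 without it.

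Of 29 osmoprotectant and sugar genes 2 fell, MIOX2 and the proline dehydrogenase ERD5, which degrades proline (13.38 and 13.38 in water, 11.70 and 11.72 in drought, -1.67 ± 0.24, adjusted p = 3.1e-05). ERD5 fell by more in WT, at -2.77, and the difference of 1.09 ± 0.29 was past the adjusted p alone. P5CS1, which makes proline, was at 0.63, past the adjusted p alone. The galactinol synthase GolS3, of raffinose synthesis, was at 6.55 and 6.59 in water and 7.68 and 8.46 in drought, just short of the limit, and at 7.37 and 7.31 against 10.46 and 10.82 in WT, a difference between genotypes called at -1.80 ± 0.27. In the CBF and cold list 1 of 9 rose, DREB1A, a transcription factor of the cold response, from 8.04 and 7.99 to 9.81 and 9.64 (1.71 ± 0.12, adjusted p = 3.4e-09), with 2.61 in WT. Its 3 probes gave 1.82, 1.71 and 0.28, the last above background in 2 of the 4 channels, and their average of 1.27 was under the limit. Of 13 phosphate starvation genes the phosphodiesterase GDPD2 fell (-1.78 ± 0.19). It fell by more in WT, from 11.93 and 12.33 to 8.91 and 8.75, and its other probe was not above background in any of the 4 quad channels.

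Of 24 iron genes tested 2 fell, 8 were higher and 7 lower by the adjusted p alone, and the median was -0.05. IRT1, the root iron transporter, went from 9.35 and 9.11 in water to 7.84 and 7.43 in drought (-1.59 ± 0.20, adjusted p = 5.0e-06) and AT3G13610, the coumarin-forming F6'H1, fell as well (-1.67 ± 0.27). A second IRT1 probe gave -1.67, and the third was not above background in any of the 4 channels, so that averaging all 3 gave -1.06. The reductase FRO2 (-1.43), the exporter PDR9 (-1.44) and the regulator FIT (-1.13) were lower by the adjusted p alone. BHLH38 (1.19), BHLH39 (0.73), BHLH100 (1.07) and BHLH101 (1.24), transcription factors that iron deficiency induces, were higher by it. Beside the lower uptake genes, 23 of 26 root-expressed genes had a value below 0, as had 10241 of all 22642 genes. Of the 26, 9 were lower by the adjusted p alone, against 10.6% of all genes, and the list median was -0.30 against -0.05 in WT. The summed level of the root-expressed genes in quad was 14.61 in both water replicates and 14.33 and 14.46 in drought. Their part in the lower iron uptake genes was not tested.

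Among the remaining lists, 10 of 33 photosynthesis genes were higher by the adjusted p alone and none lower, with a median of 0.29 and LHCB3, an antenna protein of photosystem II, at 0.94 ± 0.12. Of 18 glucosinolate genes 7 were higher and 1 lower, with MYB29, a regulator of aliphatic glucosinolates, at 1.47 ± 0.13, just under the limit. None of 28 circadian clock genes was called in quad, where 8 were higher and 1 lower by the adjusted p alone with a median of 0.22, and WT had 6 called higher and 1 lower with a median of 0.57. The clock gene CCA1 was at 0.62 ± 0.19 in quad and 2.77 in WT, a difference of -2.15 ± 0.24 (adjusted p = 7.8e-06). Of 9 brassinosteroid receptors and co-receptors none was called and the BAK1 relative SERK5 was at -1.10 ± 0.11, and of 19 synthesis, signalling and response genes none was called, with EXO, a growth gene induced by the hormone, at -1.41 ± 0.18 and PRE1 at 1.07 ± 0.12. No member was called of the sugar starvation (13 tested), flavonoid (15), mitotic (15), aquaporin (18), heat shock (11), flowering time (6) and seed storage (3) lists, whose medians lay between -0.23 and 0.20. In the flavonoid list MYBL2 (1.31) and PAP1 (1.27), a repressor and an activator of anthocyanin synthesis, were higher by the adjusted p alone. None of 10 reference genes was past the adjusted p, and their values lay between -0.37 and 0.31.

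The rises outside these lists were led by CYP76C1, a cytochrome P450 that oxidises the floral terpenoid linalool, at 8.23 and 8.27 in water and 9.57 and 11.27 in drought (2.17 ± 0.31, adjusted p = 3.4e-05). Its 2 measured probes gave changes of 2.17 and 1.07, the second under the limit. The drought replicates of CYP76C1 differed by more than in any other gene of the set of 10. Without the second drought array the change was 1.32, under the limit. The WT drought replicates lay apart in the same order, at 10.23 and 11.20 in drought. The neighbouring loci AT4G22485 (2.09 ± 0.24), AT4G22513 (2.09 ± 0.22) and AT4G22517 (1.90 ± 0.17) rose together and changed by 1.13 to 1.21 in WT, and AT3G05727 rose by 1.82 ± 0.23.

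The change at day 6 was compared with that of WT, whose RNA shared the arrays. Of the 199 genes that fell in quad 178 had a WT change below 0, as had 10423 of all 22642 genes. By the adjusted p 127 were lower in WT, against 7.75% of all genes, and 17 were called lower in WT, against 0.256%. The median WT change of the 199 was -0.84. Of the 26 that rose 24 were higher in WT by the adjusted p, against 7.44% of all genes. In WT 4 were called higher, against 0.168%, and the median WT change of the 26 was 1.33. No gene was called in opposite directions in the 2 genotypes. The difference itself contains the quad change by which the genes that fell or rose were chosen. It was called for 56 of the 199 that fell, for 2 of the 26 that rose, and for 89 genes in all (0.393%), 76 lower (0.336%) and 13 higher (0.0574%) in quad. This count rose without the first day 6 drought array or without replicate 1, and part of the 89 was then no longer called. Without replicate 2 more of the 89 lost their call.

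AT1G14250 had the largest difference upward and changes of opposite sign in the genotypes. It was at 11.34 and 11.87 in droughted and 9.65 and 9.70 in watered quad (1.93 ± 0.15, adjusted p = 1.6e-08), and at 11.43 and 12.06 in droughted and 13.01 and 13.27 in watered WT. The difference was 3.32 ± 0.19 (adjusted p = 1.1e-09). Watered quad at day 6 was the lowest of all its quad groups, and droughted quad lay within the range of the rest of the course.

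**Figure D5:**
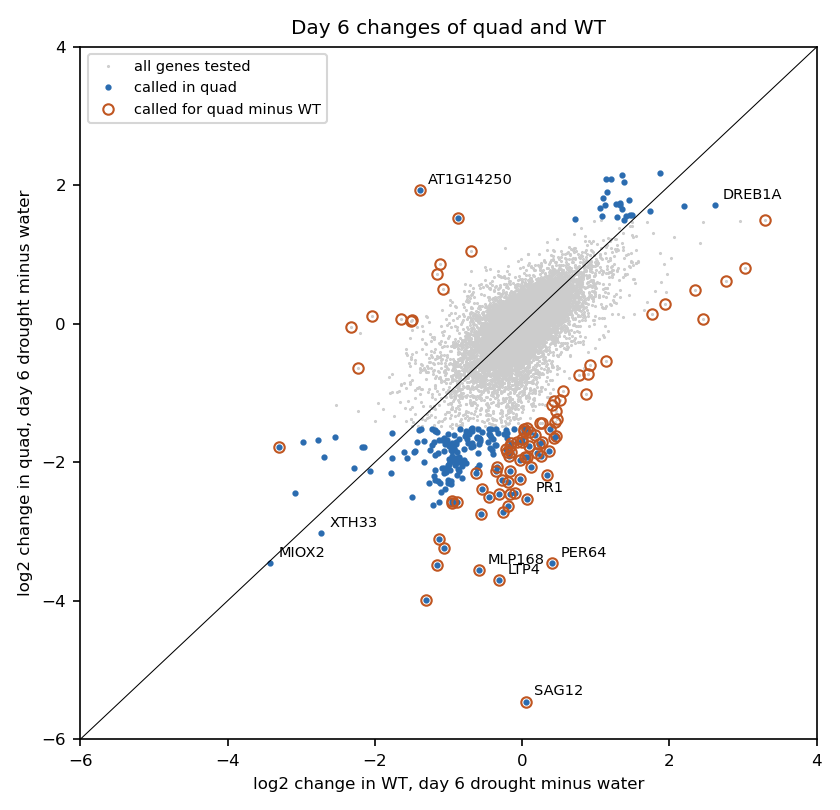
Log2 change at day 6, drought minus water, in quad (y axis) against WT (x axis) for the 22642 genes tested (grey), those called in quad (blue) and those whose difference between genotypes was called (orange rings). The line marks equal change; MIOX2 and XTH33 lie near it, SAG12, LTP4 and PER64 far below it at WT changes near 0, and AT1G14250 above it.

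At day 4 the calls in quad ran mostly the other way, with 65 genes higher (0.287%) and 10 lower (0.0442%), and at day 2 there were 4 higher (0.0177%) and 107 lower (0.473%). Of the 199 genes that fell at day 6, 178 had a change that differed from that at day 4 by the full limits (1.75% of all genes lower, 0.243% higher), and so had 12 of the 26 that rose. These genes were chosen on the day 6 change that this difference contains. The counts therefore cannot be weighed against the shares of all genes. LTP4 moved the other way at day 4, from 11.15 and 10.97 in water to 13.01 and 12.82 in drought, and at day 2 it had been at 13.99 and 14.21 in water and as low as 8.85 in drought. SAG12 was lower in droughted than in watered quad on all 3 days, and its watered level went from 12.58 and 12.38 at day 2 to 9.80 and 9.64 at day 4 and back to 11.70 and 11.72 at day 6.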

How the data were processed

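The deposited scanner files held raw median spot and background intensity for each dye, per the file headers from Agilent Feature Extraction 10.5.1.1, with the scanner-processed intensity and its log10 ratio. The authors also deposited a table of log2 ratios of all arrays after their own normexp correction and quantile normalisation. Set against the scanner log10 ratios, its direction was settled as red over green, and the correlation was lowest, 0.422, for the first day 4 drought array against 0.707 or more for the others. That table served as an alternative, chosen after seeing the data, for the difference between genotypes alone. Depth has no meaning for arrays, and the 2 replicates per group limit the precision.

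Using limma 3.58.1 and statmod 1.5.0 in R 4.3.3, median signals were background corrected (normexp, mle, offset 50), normalised within arrays by loess and between arrays by Aquantile, and split into 28 single channels. Control spots (1417) and outlier spots were left out. The brightest probe stood for a locus, and a locus was kept where 1 genotype in 1 condition or more had both its spots well above background (22811 kept, 5516 filtered out, 169 more lost to outlier spots). One model with a term for each genotype and condition was fitted (intraspot correlation 0.248, 14 residual and 6.04 prior degrees of freedom). Both limits for calls are those of the study's methods. Day 6 arrays of 1 replicate number shared a slide and a scan, so neither differs within a pair. At day 4 this held for replicate 2 only. In replicate 1 the day 4 drought array was on slide 1 and the day 4 water array on slide 2, in separate scans. The day 6 minus day 4 differences therefore also hold a slide and scan difference. Deviations of same-numbered quad samples correlated between day 6 drought and water with r = 0.263. The model held no term for dye, slide or replicate. P-values thus measure the spread between replicates, which mixes plant pools with dye, slide and scan. The procedure was tested on simulated data with 200 changed genes.

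Named genes were the 10 largest rises and 10 largest falls among called genes that were well above background in all 4 channels and of 1 direction in both replicates, the 4 mutated genes, up to 4 called members of each list or, with none called, the 2 with the largest change, and up to 5 genes for each other comparison. Other names were added after their values were seen. The 28 lists (572 genes drawn up, 545 carrying their name in the reference table, 520 tested) and the comparison itself were chosen with earlier results of these data known. Gene names came from the array files and RefSeq (TAIR10.1), which held 22487 of the loci tested. A bound on a fold set a dim group to the higher of its own signal and the weakest signal well above background, averaged over replicates. Alternatives covered the background correction, normalisation, filter, probe rule, slide, replicate block and each replicate left out, where the intraspot correlation of the full fit was kept.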

Additional observations from a re-analysis of the deposited data

Results flagged for a closer look

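Results where the change in quad differed from that in another group by a direct test are given here as values. The day 6 change differed between quad and WT in 89 genes. Among the named genes the difference, quad minus WT on the log2 scale, was -5.50 for SAG12, -3.87 for PER64, -3.38 for LTP4, -2.97 for MLP168, -2.59 for PR1, -2.44 for PR5, -2.34 for BGL2, -2.34 for AT5G50830, -2.19 for MIF2, -2.19 for LTP3, -2.04 for TAT3 and -1.63 for AT5G12960. It was above 0 for AT1G14250 at 3.32 and for GDPD2 at 1.52, and GDPD2 fell in both genotypes. The WT replicates of PR1, PR5, BGL2 and PER64 lay far apart in drought, and BGL2 stood at 10.46 and 12.21 there. AT5G12960 was at 6.94 and 7.76 in droughted WT and at 8.34 and 8.28 in watered WT.

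In quad the change differed between day 6 and day 4 in 451 genes. Of the named genes the day 6 minus day 4 difference was lowest for LTP4 at -5.56, followed by LEA7 at -4.75, PR5 at -4.38, BGL2 at -4.25, TAT3 at -4.14, MLP168 at -4.11 and AT5G50830 at -4.01. It was -3.58 for PR1, -3.54 for PER64, -3.52 for AT5G50030, -3.48 for SAG12, -3.47 for MIF2, -3.08 for LTP3, -2.97 for PAD3, -2.97 for MYB21, -2.86 for MIOX2 and -2.69 for AT5G12960. Smaller differences were those of XTH33 at -2.39, XTH24 at -2.19, XTR6 at -2.04, TIP2;3, an aquaporin of the vacuole membrane, at -1.90 and XTH18 at -1.61. Differences above 0 were 3.21 for AT1G14250, 3.01 for ORA47, 2.88 for AT4G22513, 2.77 for AT4G22485, 2.55 for AT4G22517, 2.43 for CYP76C1, 1.88 for AT3G05727 and 1.87 for DREB1A.

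Of the 6690 probes without a locus 1240 were tested, and 1 was called, with a log2 change of -1.52. Groups of 2 samples were not tested for single outlying samples.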

How the results depend on the processing

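The counts of calls rested most on the background correction, and on the fold limit. In the order quad day 6 change, difference from WT and difference from day 4, they were 225, 89 and 451 as reported, 888, 378 and 1299 with scanner-processed signals, 503, 266 and 856 with a normexp offset of 0, and 4094, 1366 and 3688 with the adjusted p alone. Of the 225 genes 224 were called with either other background correction. Quantile normalisation, centring on the 75th percentile, the filters, the mean of probes and slide as a term left the counts within 1.5 times. With the replicate number as a block they were 225, 90 and 451, and the block changed no call of a named gene. Leaving out an array or a replicate gave 225 to 252, 88 to 144 and 449 to 517, the 88 without the first day 4 drought array; the highest difference from WT, 144, came without replicate 1. With the deposited ratios 87 genes differed from WT, all among the 89. Over 1429 pairs of a named gene and an alternative, 1398 kept direction and side of the limits, 9 lost the call, 16 gained one and 6 changed sign. The sign changes were of genes never called. BRI1 was at -0.085 with the mean of probes, and with samples left out it ran from -0.25 (without drought replicate 2) over -0.18 (without replicate 2) and -0.027 (without water replicate 1) to 0.325. UBQ5 ran from -0.20 (without replicate 1) over -0.022 (without water replicate 1) to 0.827. The lost calls were of CYP76C1, DREB1A, IRT1, GDPD2 (-0.94 with the mean of probes) and SAUR24. Salicylate members past the adjusted p numbered 16 to 22 and auxin members 15 to 19. The cause of these shifts was not tested.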
